A study of Mus musculus with 10 samples.

Results

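Mucins are long glycoproteins whose serine and threonine residues carry dense O-linked sugar chains. The 7 genes described here, *Muc1*, *Muc4*, *Muc5b*, *Muc13*, *Muc15*, *Muc16* and *Muc20*, were chosen by gene symbol and are 7 of the 29268 genes measured. They were measured by RNA-seq in whole uterus of 5 HSD17B1TG and 5 wild-type (WT) female mice of the FVB/N strain, all aged 4 months and without other treatment. The HSD17B1TG mice belong to a single heterozygous line in which a CMV-enhanced chicken beta actin promoter drives human HSD17B1 cDNA in all tissues, and the encoded enzyme converts estrone to the more active estradiol. HSD17B1TG females do not cycle, whereas the study's account of its histology states that WT uteri were taken at random phases of the cycle. The phase of each sequenced WT mouse is not given in the sources used here, so genotype and cycle stage cannot be told apart. Each mouse gave 1 library. Within each genotype the mice are numbered by rising animal number in their labels, as TG1 to TG5 and as WT1 to WT5.

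Membrane mucins such as *Muc1*, *Muc4*, *Muc13*, *Muc15*, *Muc16* and *Muc20* span the apical membrane of epithelial cells, where they hydrate the surface, keep microbes and other cells at a distance and can pass signals inward. *Muc5b* instead is secreted and forms the gel of mucus, for which the cervix is best known among the organs of the female tract. In the mouse uterus, *Muc1* covers the luminal epithelium outside the window of implantation and is known to be raised by estrogen and lowered before implantation.

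The protein-coding parts of mucin genes hold tandem repeats, which are shown here because reads that fall inside them can match several places. In the GENCODE M21 transcript of *Muc13*, an 81-base coding unit occurred in 5 exact copies and in 7 copies at 70% identity or more. The first exact unit shown begins at coding base 118, and the next unit, from base 199, is letter for letter the same. *Muc1* held a 60-base unit in 8 copies at that identity, of which the first 2 consecutive units are shown, with capitals in the second marking the 14 bases that differ from the first.
Muc13 unit 1: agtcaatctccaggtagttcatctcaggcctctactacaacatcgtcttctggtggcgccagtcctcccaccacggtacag
Muc1 unit 1: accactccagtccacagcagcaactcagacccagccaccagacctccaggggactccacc
Muc1 unit 2: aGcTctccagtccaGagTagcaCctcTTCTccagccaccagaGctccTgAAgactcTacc
Of all 150-base windows of coding sequence, as long as 1 read, 18.1% of those in *Muc13* and 14.0% of those in *Muc5b* occurred more than once within the gene. The share was 0.565% in *Muc4* and 0.0712% in *Muc16*, and no such window was found in *Muc1*, *Muc15* or *Muc20*. How the counting treated reads with several matches is not given in the sources used here.

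Promoter sequence is shown for the 4 membrane mucins with a mean above 1 FPKM (fragments per kilobase of gene, scaled to library size), because 3 of them varied together between mice and *Muc13* differed most between genotypes. The letters are the 250 bases before the annotated start site in RefSeq, build GRCm38.p6, in the reading direction of each gene. Capitals mark matches on either strand, none of which overlap. The letters GGGCGG are the GC box, and TATAAA is the TATA box of core promoters. The core of the estrogen response element is GGTCA, and AGGAAG is a site of ETS factors. The AP-1 site is TGANTCA. The STAT site was searched as TTCNNNGAA. The *Muc1* window lies at chr3:89228806-89229055 on the plus strand, *Muc4* at chr16:32735636-32735885 on the plus strand, *Muc20* at chr16:32797436-32797685 on the minus strand and *Muc13* at chr16:33793787-33794036 on the plus strand.
Muc1: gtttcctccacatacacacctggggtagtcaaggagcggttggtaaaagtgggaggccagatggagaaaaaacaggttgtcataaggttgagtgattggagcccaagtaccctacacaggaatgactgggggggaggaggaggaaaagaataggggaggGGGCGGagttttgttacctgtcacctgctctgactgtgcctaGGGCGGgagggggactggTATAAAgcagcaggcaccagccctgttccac
Muc4: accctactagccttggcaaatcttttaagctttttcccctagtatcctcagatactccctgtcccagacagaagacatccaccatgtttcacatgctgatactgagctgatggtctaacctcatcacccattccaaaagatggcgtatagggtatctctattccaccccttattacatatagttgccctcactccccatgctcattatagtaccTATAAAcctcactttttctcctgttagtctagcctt
Muc20: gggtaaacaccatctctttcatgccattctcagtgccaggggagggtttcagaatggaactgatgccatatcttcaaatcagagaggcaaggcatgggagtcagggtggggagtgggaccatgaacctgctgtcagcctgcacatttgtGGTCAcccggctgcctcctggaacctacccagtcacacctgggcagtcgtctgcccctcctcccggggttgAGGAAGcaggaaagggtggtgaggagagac
Muc13: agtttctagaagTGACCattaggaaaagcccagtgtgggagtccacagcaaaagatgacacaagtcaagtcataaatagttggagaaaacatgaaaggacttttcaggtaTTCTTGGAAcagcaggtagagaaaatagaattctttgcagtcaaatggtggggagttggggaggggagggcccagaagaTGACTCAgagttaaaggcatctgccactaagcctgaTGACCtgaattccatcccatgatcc
The *Muc1* window held 2 GC boxes and a TATA box 31 bases before the start, and the *Muc4* window a TATA box 36 bases before it. *Muc20* held 1 estrogen element core and 1 ETS site. *Muc13* held 2 estrogen element cores, an AP-1 site and a STAT site. Among all 32851 windows of this length, 35.2% held the estrogen element core, 32.7% the GC box, 29.5% the ETS letters, 12.4% the TATA box, 7.02% the STAT letters and 6.75% the AP-1 letters. The full estrogen response element, in which this core and its reverse complement are parted by any 3 bases, stood in 0.0639% of all windows and in none of these 4. The window of a second *Muc13* start, not printed here, held 3 estrogen element cores and an AP-1 site but no STAT site. *Muc16* also had a window, whereas for *Muc5b* and *Muc15* no window was used here. These matches describe letters and not bound sites.

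Each library held 14817228 to 23271988 counts on genes, and a count of 3, taken here as the floor of a library, equals 0.129 to 0.202 CPM (counts scaled to library size). This floor covers counting error only. The 7 mucins together took 0.0209% to 0.124% of the counts in HSD17B1TG and 0.00147% to 0.0580% in WT. Over all 16993 genes that passed the filter on low counts, 367 were called up and 354 down in HSD17B1TG, where a call needs an adjusted p under 0.05 by edgeR's quasi-likelihood test, more than a 2-fold change and over 1 FPKM on average in at least 1 genotype. These totals moved strongly with single mice. Without TG1 or WT4, 763 and 888 genes were called up and 575 and 666 down. Without TG2, TG4, TG5, WT1, WT2, WT3 or WT5, in that order, 55, 83, 38, 100, 38, 68 and 46 were called up and 60, 66, 27, 145, 56, 78 and 62 down. Mitochondrial genes took 4.92% ± 2.56 (SD, n = 5) of counts in HSD17B1TG and 3.07% ± 0.322 in the WT mice (p = 0.167 by an exact permutation test, two-sided). *Hoxa10*, a marker of uterine mesenchyme, was at 30.4 FPKM ± 10.7 in HSD17B1TG and 133 ± 73.4 in WT.

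The mucins spanned more than 3 orders of magnitude. By mean FPKM over the 10 mice, which corrects for gene length, the order was *Muc1* (85.7), *Muc4* (26.6), *Muc20* (10.3), *Muc13* (2.49), *Muc16* (0.0630), *Muc5b* (0.0469) and *Muc15* (0.0284). *Muc1* was above *Muc4* in 10 of 10 mice, *Muc4* above *Muc20* in 8, *Muc20* above *Muc13* in 10 and *Muc13* above *Muc16* in 8. *Muc16* was above *Muc5b* in 6 mice and *Muc5b* above *Muc15* in 5, so these 3 had no stable order. Within WT, the ranges of *Muc20* and *Muc13* did not overlap, and within HSD17B1TG those of *Muc13* and *Muc16* did not, whereas the ranges of all other neighbours in the order overlapped in both genotypes.

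**Figure D1:**
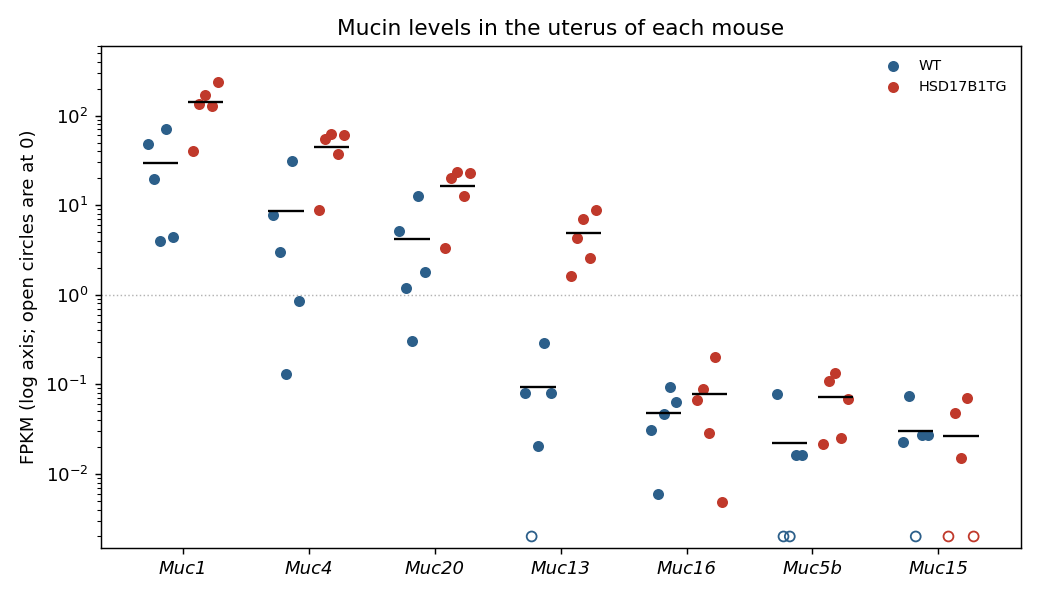
FPKM of the 7 mucins (log axis) in each of 5 WT mice (blue) and 5 HSD17B1TG mice (red); black bars are group means, open circles are mice at 0 and the dotted line is 1 FPKM. Only for Muc13 do all red points lie above all blue ones, 1.62 to 8.95 against 0 to 0.287 FPKM.

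*Muc13*, a membrane mucin best known from the intestine, was the only mucin called different between the genotypes. Its level was 1.62, 4.28, 6.95, 2.59 and 8.95 FPKM in TG1 to TG5, and 0.0803, 0, 0.0204, 0.287 and 0.0804 FPKM in WT1 to WT5. Every HSD17B1TG mouse was above every WT mouse. Behind these levels stood 92 to 423 counts in each HSD17B1TG mouse, whereas the WT mice held 6, 0, 1, 18 and 5 counts, 2 of them at or under the floor. The log2 fold change was 5.64 ± 0.85 (SE), with an adjusted p of 0.0172 by edgeR's quasi-likelihood test. As a background, 2.16% of the genes tested were called up, 4.04% had all HSD17B1TG mice above all WT mice, and 8 genes, or 0.0471%, had a log2 fold change at least as high as that of *Muc13*. *Muc13* was called with each of the 10 mice left out in turn, with log2 fold changes from 5.30 to 6.61, the highest without WT4. On the log2(FPKM + 1) scale the difference was 2.26, which understates a change from such low WT levels.

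*Muc13* lies at chr16:33794037-33819934 on the plus strand. An antisense transcript, *Gm15657*, shares 184 exonic bases with it, 6.06% of the exonic bases of *Muc13*, and was itself at 0.197 FPKM ± 0.136 in HSD17B1TG and 0.0618 ± 0.111 in WT, too low to be tested. Without a known strand setting, reads in the shared bases cannot be given to one gene. The next protein-coding genes on either side did not rise. *Heg1*, which encodes a mucin-like endothelial receptor and lies 22461 bases away, fell by 1.74 ± 0.34 (log2, SE; adjusted p = 0.0255, edgeR), from 16.4 FPKM ± 6.03 to 4.93 ± 1.75. *Itgb5*, an integrin subunit 9731 bases to the other side, had a log2 fold change of -0.63 (adjusted p = 0.156, edgeR).

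*Muc1*, the major mucin of the uterine lumen, was the most abundant of the 7 in every mouse. It was at 39.9, 135, 170, 127 and 238 FPKM in TG1 to TG5 and at 48.3, 19.4, 4.02, 70.4 and 4.41 FPKM in WT1 to WT5. Of the HSD17B1TG mice, 4 were above all WT mice, and TG1 lay within the WT range, below WT1 and WT4. The WT mice alone spread from 4.02 to 70.4 FPKM. The log2 fold change was 2.28 ± 0.79 (SE), which did not pass the test (adjusted p = 0.0982, edgeR). DESeq2 called it at the same size (adjusted p = 0.0158), and with *Muc13* that made 2 mucins up where DESeq2 called up 5.42% of all genes. Without WT4, the WT mouse with the highest level, it was 2.90 with an adjusted p of 0.0411 and was called. The gene, at chr3:89229057-89233381 on the plus strand, overlaps no other gene. *Trim46*, a microtubule-associated protein gene 796 bases beyond it, was at 13.9 FPKM ± 5.47 in HSD17B1TG and 6.01 ± 2.40 in WT (log2 fold change 1.21, adjusted p = 0.0548, edgeR). *Mtx1* on the other side, a gene of mitochondrial import, had a log2 fold change of -0.02.

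*Muc4*, a membrane mucin that binds the receptor tyrosine kinase ERBB2, varied most. Its level was 8.80, 55.0, 61.6, 37.4 and 60.4 FPKM in TG1 to TG5, and 7.86, 2.96, 0.132, 31.1 and 0.843 FPKM in WT1 to WT5. The genotypes overlapped through TG1 on the low side and WT4 on the high side. The log2 fold change was 2.39 ± 1.11 (SE) and did not pass the test (adjusted p = 0.201, edgeR), and without WT4 it was 3.92 with an adjusted p of 0.0350. It was 3.78 by voom and 3.73 by limma on log2(FPKM + 0.1), with adjusted p of 0.0824 and 0.0727, and 3.02 by limma on log2(FPKM + 1). Voom and limma on log2(FPKM + 0.1) also gave higher values for *Muc1* (2.84 and 2.89) and *Muc20* (2.53 and 2.56), none of them called. The spread of log2 CPM within genotypes was an SD of 2.27 for *Muc4*, higher than for 99.8% of the genes tested. For *Muc20*, *Muc1*, *Muc16* and *Muc13* this SD was 1.639, 1.505, 1.504 and 1.11, higher than for 98.0%, 96.9%, 96.9% and 90.1% of the genes. Counting error adds to this spread where counts are low, as for *Muc13* in WT and for *Muc16*.

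*Muc20*, a small membrane mucin known to bind the hepatocyte growth factor receptor MET, was at 3.36, 20.01, 23.6, 12.7 and 22.6 FPKM in TG1 to TG5. In WT1 to WT5 it was at 5.18, 1.18, 0.308, 12.7 and 1.79 FPKM. TG1 again lay inside the WT range, and TG4 and WT4 had nearly the same level. The log2 fold change of 1.96 ± 0.84 (SE) did not pass the test (adjusted p = 0.169, edgeR), and without WT4 it was 2.95 with an adjusted p of 0.0350. Without that mouse 4 mucins were called up, *Muc1*, *Muc4*, *Muc13* and *Muc20*, against 5.12% of all genes tested, and 12 of 25 epithelial markers were called up in the same fit. With each of the other 9 mice left out, *Muc1*, *Muc4* and *Muc20* were not called.

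*Muc4* and *Muc20* are convergent neighbours. *Muc4* spans chr16:32735886-32782391 on the plus strand and *Muc20* chr16:32777419-32797435 on the minus strand, so their ends overlap over 4973 bases. The exons share 627 bases, which is 5.33% of the exonic bases of *Muc4* and 15.6% of those of *Muc20*. Their levels followed each other. The ratio of *Muc4* to *Muc20* FPKM was 2.61 to 2.95 in the 5 HSD17B1TG mice and 2.45 to 2.52 in WT2 and WT4, but 1.52, 0.428 and 0.470 in WT1, WT3 and WT5. Since the strand setting of the counting is not given in the sources used here, the part of shared reads in this ratio was not tested. *Tnk2*, the nearest protein-coding gene before *Muc4*, had a log2 fold change of 0.01.

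**Figure D2:**
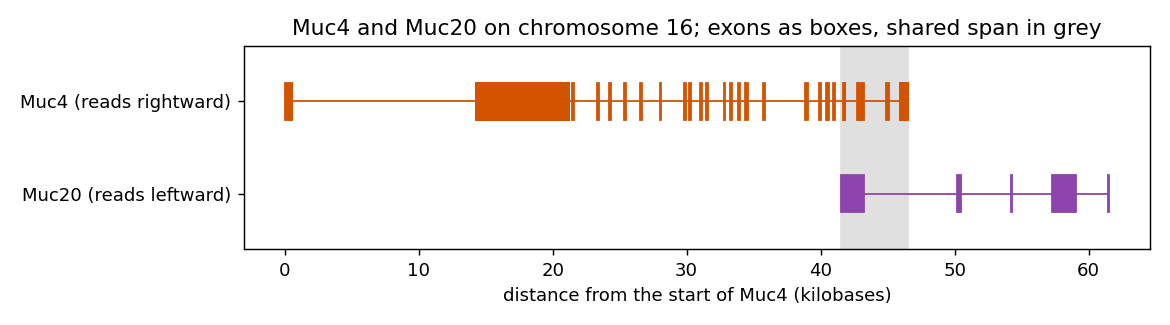
Exons (boxes) of Muc4 and Muc20 by distance from the start of Muc4 in kilobases; the genes read towards each other and the grey band is the span of 4973 bases they share. The last exon of Muc20 falls inside the band, together with the last exons of Muc4.

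*Muc16*, the large membrane mucin known in humans as the antigen CA125, was low per length, with 2 to 85 counts per mouse on 26350 exonic bases and 2 of 10 mice at or under the floor. It was at 0.0672, 0.0894, 0.0282, 0.2001 and 0.00488 FPKM in TG1 to TG5 and at 0.0309, 0.00599, 0.0471, 0.0937 and 0.0630 FPKM in WT1 to WT5. All WT mice lay within the HSD17B1TG range, as the highest and the lowest mouse were both HSD17B1TG. The log2 fold change was 0.69 ± 0.82 (SE; adjusted p = 0.635, edgeR) and changed sign to -0.017 without TG4, the highest mouse. The spread within genotypes was larger than the difference.

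*Muc5b*, the gel-forming mucin, and *Muc15*, a membrane mucin first known from milk, had too few counts to pass the filter. *Muc5b* had 6, 28, 38, 6 and 16 counts in TG1 to TG5 and 29, 0, 0, 5 and 5 in WT1 to WT5, with WT1 among the highest. *Muc15* had 0, 3, 1, 4 and 0 counts in TG1 to TG5 and 2, 5, 0, 2 and 2 in WT1 to WT5. With no filter the log2 fold changes were 1.56 for *Muc5b* (adjusted p = 0.370, edgeR) and -0.23 for *Muc15* (adjusted p = 0.936, edgeR). *Muc15* lies wholly within the span of *Ano3* on the opposite strand, and 8 of 10 mice were at or under the floor of 3 counts. *Muc5ac*, the gel-forming neighbour of *Muc5b* 19839 bases away, was at 0.244 FPKM ± 0.124 in HSD17B1TG and 0.0398 ± 0.0527 in WT (log2 fold change 2.55, adjusted p = 0.126, edgeR). *Tollip*, on the other side of *Muc5b*, an adaptor of Toll-like receptor signalling, had a log2 fold change of 0.25.

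**Figure D3:**
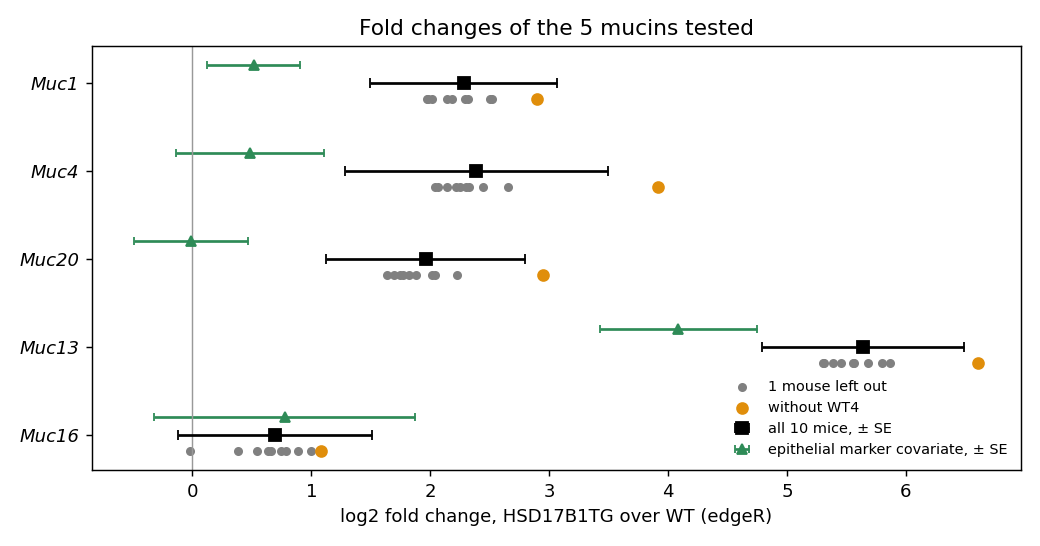
Log2 fold change of the 5 mucins tested, HSD17B1TG over WT, by edgeR; squares are the fit of all 10 mice with its SE, grey points leave out 1 mouse each, orange points leave out WT4 and green triangles include the epithelial marker mean as a covariate, with SE. Muc13 stays at 5.30 or more with any mouse left out, whereas Muc16 reaches -0.017.

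Mucins are made by epithelium, and whole uterus holds an unknown share of it. In bulk tissue, fewer cells of a type and less RNA per cell cannot be told apart. All 25 epithelial markers had a positive log2 fold change (median 1.24), of which 2 were called up (2.16% over all genes tested), *Prom1* (1.87, adjusted p = 0.0324, edgeR) and the protease inhibitor *Spint2* (1.58, adjusted p = 0.0345, edgeR). Of these markers, 12 were called up without TG1 (763 of 17272 genes tested), 12 without WT4 (5.12% of genes tested) and 10 by DESeq2 (5.42%). None was called up without TG2, TG4, TG5, WT1, WT2, WT3 or WT5, and 2 were without TG3. Over all genes tested the median was 0.00 and 50.2% were higher in HSD17B1TG. A shared sign was not particular to epithelium, as 11 of 11 tested smooth muscle markers and 11 of 12 mesothelium markers were also higher. The summed level of the epithelial markers was 1342 to 6079 FPKM in HSD17B1TG and 991.5 to 2772 in WT, and none was at the floor. The mean of log2(FPKM + 0.01) over the markers was 4.70, 6.29, 6.36, 6.02 and 6.83 in TG1 to TG5 and 5.27, 4.64, 3.82, 5.61 and 4.14 in WT1 to WT5. TG1 was thus the HSD17B1TG mouse with the lowest epithelial level, and WT4 the WT mouse with the highest, as for *Muc4*, *Muc20*, *Muc1* and *Muc13*.

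Within genotypes, log2 CPM of *Muc1*, *Muc20*, *Muc4* and *Muc13* correlated with the mean log2 CPM of the epithelial markers with r = 0.92, 0.90, 0.88 and 0.76. *Muc16* did so with r = -0.24 (Pearson, deviations from genotype means, 10 mice). Between mucins, r was 0.95 for *Muc1* and *Muc4*, 0.95 for *Muc4* and *Muc20*, 0.87 for *Muc1* and *Muc20*. *Muc13* had r of 0.83 with *Muc20*, 0.66 with *Muc4* and 0.62 with *Muc1*. *Muc16* had r from -0.20 to 0.02 against the other 4. These are descriptions over 10 libraries, in which all genes share the depth and tissue make-up of a mouse. The genes with the pattern most like each mucin, among 13826 protein-coding genes, were *Ly6g*, *Atp10b* and *Ccser2* for *Muc1* (r of 0.99 each) and *Slc23a4*, *B3gnt3* and *Tmem30b* for *Muc4* (0.98 each). They were *Lad1*, *Krt7* and *5031439G07Rik* for *Muc20* (0.98 to 0.99), *Creb3*, *Plp2* and *Slc39a8* for *Muc13* (0.95 to 0.96) and *Chl1*, *Syt2* and *Myrf* for *Muc16* (0.91 to 0.93). None of these 15 genes was called. *Krt7* is itself one of the epithelial markers, and *B3gnt3* extends O-glycans.

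Each mucin was then set against the epithelial mean of its own mouse, as log2(FPKM + 0.01) minus that mean. For *Muc13* this value was -4.01 ± 0.43 (SD, n = 5) in HSD17B1TG against -8.77 ± 1.55 in the WT mice, a difference of 4.76 with all HSD17B1TG mice above all WT mice (exact permutation, two-sided, p = 0.00794, which no regrouping of 10 mice can undercut). The size of the *Muc13* difference depends on the 0.01 added, as WT2 was at 0 FPKM and WT3 at 0.0204. For *Muc1* the values were 0.90 ± 0.19 and -0.66 ± 1.18, a difference of 1.56 that again separated the genotypes (exact permutation, p = 0.00794). For *Muc4* the difference was 2.57 (exact permutation, p = 0.0317), with 2 HSD17B1TG mice above all WT mice, and for *Muc20* it was 1.32 (exact permutation, p = 0.0873).

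Relative to the same mean, *Muc16* differed by -1.004 (exact permutation, p = 0.357) and *Muc5b* by 0.24 (exact permutation, p = 0.698). The value of *Muc15* differed by -1.69, but with 0 to 5 counts per mouse most of this is the difference of the epithelial mean, and it is no result on *Muc15*. The *Muc5b* difference turned negative with 0.1 or 1 added to FPKM in place of 0.01. With 1 added, the term of these 3 mucins is nearly constant and the difference is mainly that of the epithelial mean itself, which was higher in HSD17B1TG by 1.34. No p over these 7 mucins was adjusted for their number. With the mean log2 CPM of the epithelial markers as a covariate in edgeR, the log2 fold change of *Muc13* was 4.09 ± 0.66 (SE). Its adjusted p was 0.112 by edgeR's quasi-likelihood test. The log2 fold changes of *Muc1*, *Muc4* and *Muc20* were 0.52, 0.49 and -0.0097. In that fit 0 of 16993 genes were called, and 1770 had an unadjusted p under 0.05. The covariate differed between the genotypes, so part of the genotype difference entered it.

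**Figure D4:**
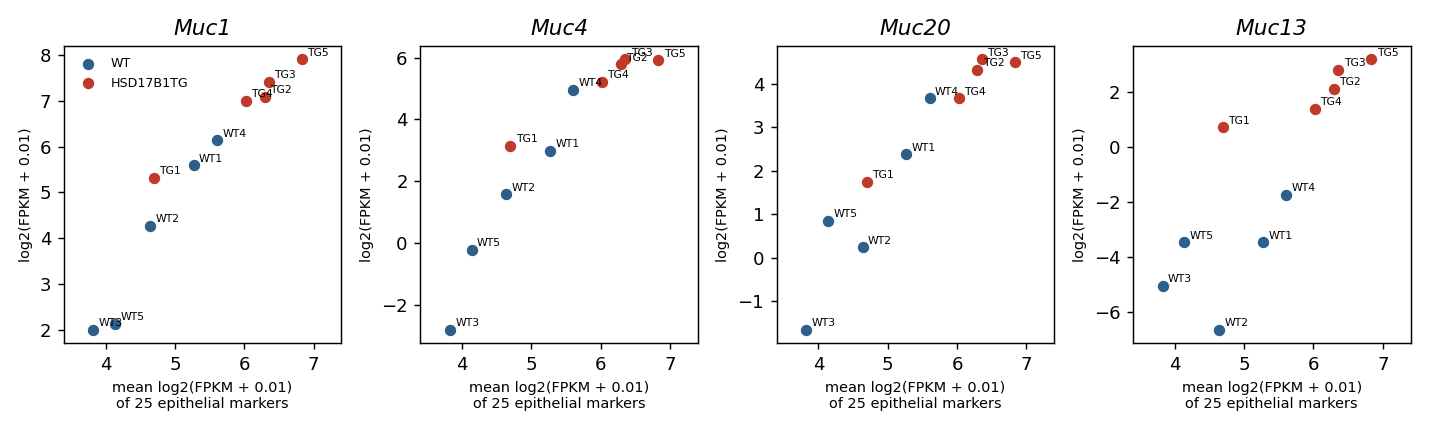
Log2(FPKM + 0.01) of Muc1, Muc4, Muc20 and Muc13 against the mean of 25 epithelial markers on the same scale, with 1 point per mouse (blue WT, red HSD17B1TG). The marker means of TG2 to TG5 (6.02 to 6.83) lie above those of all WT mice (3.82 to 5.61), and TG1 (4.70) lies among them.

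Markers of other sources of mucin were examined in the same fit, in which 2.16% of all genes tested were called up and 2.08% down. Of 11 tested luminal epithelium markers, 1 was called up and 3 down, with a median log2 fold change of 0.17. *Krt13*, a keratin, rose by 4.30, whereas the histamine-synthesizing enzyme *Hdc* fell by 3.50, the hedgehog ligand *Ihh* fell by 5.28 and *Acod1*, which makes itaconate, fell by 5.28. Of 8 gland markers 1 was called up, the estrogen-induced lactoferrin *Ltf* (log2 fold change 4.07, adjusted p = 0.0374, edgeR), and the median was -0.45. Cervicovaginal and squamous markers summed to 11.6 to 67.1 FPKM in HSD17B1TG and 10.9 to 18.6 in WT, and 1 of 10 tested was called up, again *Krt13*. *Krt5*, a keratin of basal cells, was at 6.94 FPKM ± 8.42 in HSD17B1TG and 1.23 ± 0.736 in WT and was at 0 in 1 HSD17B1TG mouse. Of 12 mesothelium markers none was called (median 1.40), and their sum was 63.5 to 167 FPKM in HSD17B1TG and 42.1 to 112 in WT.

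Against the same background of 2.16% up and 2.08% down over all genes tested, the remaining cell types were read by their markers. Oviduct and ciliated cell markers summed to 57.8 to 104 FPKM in HSD17B1TG and 66.8 to 130 in WT. *Foxj1*, which defines ciliated cells, was at 0.0269 and 0.494 FPKM in the same order. Of 8 of these markers tested, 5 were higher and 3 lower in HSD17B1TG (median 0.37), and none was called. Of 13 stroma markers 6 were called down (median -1.18), with *Hand2* (-1.998), *Pdgfra* (-1.99), *Hoxa11* (-2.36) and *Hoxa10* (-2.14) among them, and their sum was 610.5 to 2300 FPKM against 2004 to 2606. Leucocyte markers summed to 119 to 189 FPKM in HSD17B1TG and 90.7 to 155 in WT. Of 11 tested, 3 were higher and 8 lower in HSD17B1TG (median -0.32), and 2 were called up, *Cd68* (1.58) and *Laptm5* (1.28). Of the 11 smooth muscle markers, led by *Acta2* and *Actg2*, and of the 11 endothelium markers, led by *Cldn5* and *Pecam1*, none was called, with medians of 0.60 and -0.61. The part of other cell types in the mucin values was not tested.

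The other mucins and mucin-like glycoproteins did not move as 1 set. Of 11 tested, none was called up and 1 was called down (2.16% and 2.08% over all genes tested), *Cd34*, a sialomucin of vessels and fibroblasts (19.96 FPKM ± 10.2 in HSD17B1TG against 69.8 ± 28.3 in WT, log2 fold change -1.81, adjusted p = 0.0324, edgeR). All HSD17B1TG mice were below all WT mice in *Cd34*, as in 2.65% of all genes tested. The most abundant, the sialomucin *Cd164*, was at 92.3 FPKM ± 24.4 and 98.3 ± 28.4 (log2 fold change -0.09). *Muc3a*, *Mucl3* and *Muc2* were low, at 0.707, 0.261 and 0.194 FPKM in HSD17B1TG and 0.424, 0.183 and 0.159 in WT, with log2 fold changes of 0.72, 0.50 and 0.28 that did not pass the test.

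Enzymes that place the first sugar of O-glycans, the polypeptide N-acetylgalactosaminyltransferases, were called up in 2 of 16 tested members and down in none (median 0.31), against 2.16% and 2.08% of all genes. *Galnt6* was at 26.2 FPKM ± 12.8 in HSD17B1TG and 2.001 ± 1.82 in WT without overlap of the groups (log2 fold change 3.71 ± 0.62, SE; adjusted p = 0.0180, edgeR). *Galnt4* was at 17.4 FPKM ± 5.70 and 7.92 ± 3.37 (1.13 ± 0.29; adjusted p = 0.0462, edgeR). *Galnt12* and *Galnt15*, the members with the highest mean level, had log2 fold changes of 1.76 and 1.71 and did not pass the test (adjusted p = 0.122 and 0.151, edgeR).

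Enzymes that extend and cap the chains were called in both directions, 3 up and 2 down of 28 tested (median -0.06), against 2.16% up and 2.08% down over all genes tested. *St6galnac1*, which adds sialic acid to the first sugar and so ends the chain, was at 6.14 FPKM ± 3.76 in HSD17B1TG and 0.279 ± 0.249 in WT, again without overlap (4.43 ± 0.73, SE; adjusted p = 0.0177, edgeR). The related *St6galnac2* (1.47, adjusted p = 0.0499, edgeR) and the fucosyltransferase *Fut9* (2.03, adjusted p = 0.0460, edgeR) also rose. *St6galnac2* is listed under 2 gene identifiers, of which the other was not called (0.85), so its reads may be divided between them. The sialyltransferase *St3gal4* fell by 1.10 (adjusted p = 0.0374, edgeR) and the sulfotransferase *Chst2* fell by 1.78 (adjusted p = 0.0375, edgeR), both without overlap of the groups. Over all genes tested, 4.04% had all HSD17B1TG mice above all WT mice and 2.65% all below. The abundant *B4galt1* and *Fut2* had log2 fold changes of -0.10 and 1.31 and were not called.

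Genes of the mucus secretory programme, with proteins found in mucus, were called up in 4 of 15 tested members and down in none (median 1.84), against 2.16% up and 2.08% down over all genes tested. They were *Pigr*, the receptor that carries IgA across epithelium (336 FPKM ± 229 in HSD17B1TG, 33.2 ± 18.3 in WT, log2 fold change 3.34), *Dmbt1*, a mucin-like scavenger protein (21.2 ± 15.2 and 0.412 ± 0.640, 5.65), *Clca1*, a secreted metalloprotease of mucus (2104 ± 1471 and 82.7 ± 123, 4.68), and the sulfhydryl oxidase *Qsox1* (63.9 ± 21.04 and 24.2 ± 8.66, 1.40). In each of these 4 all HSD17B1TG mice were above all WT mice, as in 4.04% of all genes tested. The same held for *Fcgbp*, a binding partner of gel-forming mucins, at 1127 FPKM ± 684 and 122 ± 131, which missed the threshold (3.22, adjusted p = 0.0544, edgeR).

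None of 16 tested sheddases and proteases that release membrane mucins was called (median 0.43), and the most abundant, *Mmp2* and *Mmp14*, had log2 fold changes of -0.98 and 0.44. Among 25 tested binding partners and adaptors, 1 was called up and 1 down (median 0.64), near the shares of 2.16% up and 2.08% down over all genes tested. *Erbb2*, the receptor kinase that *Muc4* binds, was at 26.7 FPKM ± 9.21 in HSD17B1TG and 12.5 ± 2.91 in WT (log2 fold change 1.09, adjusted p = 0.0388, edgeR). *Lgals1*, a galectin, was at 362 FPKM ± 132 and 809 ± 128 without overlap (-1.17, adjusted p = 0.0260, edgeR). *Ezr*, which encodes ezrin and links membrane proteins to actin, had a log2 fold change of 1.23 (adjusted p = 0.110, edgeR).

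**Figure D5:**
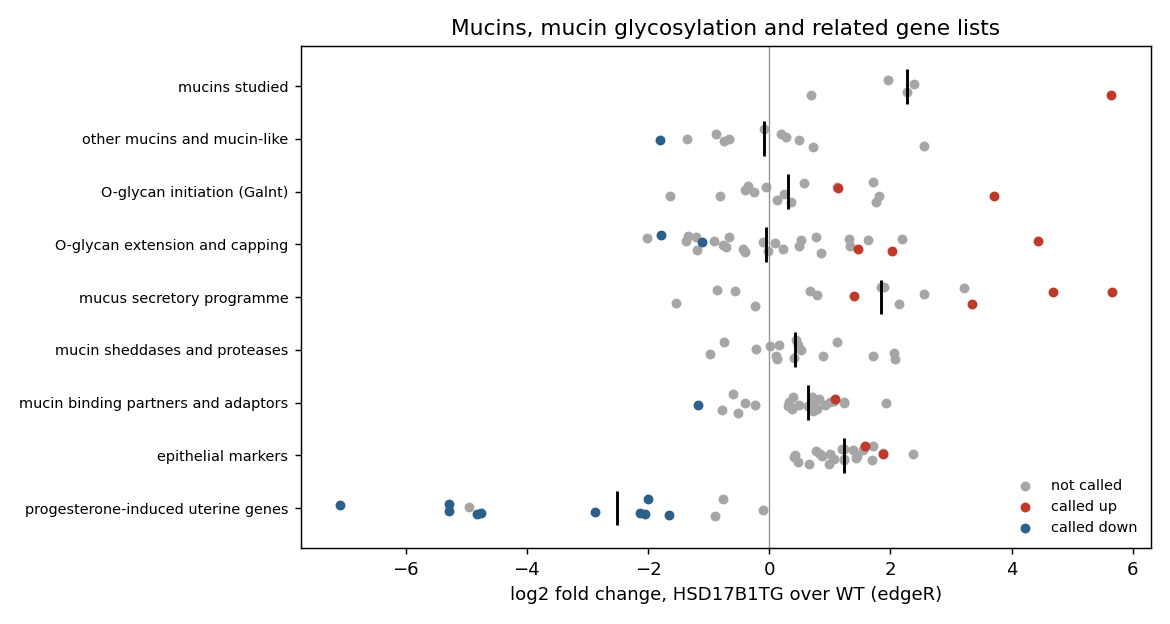
Log2 fold change of each tested gene, HSD17B1TG over WT, in the mucins and 8 related gene lists; red and blue points were called up and down, grey points were not called and black bars are list medians. Called genes lie on both sides of 0 among the enzymes that extend O-glycans and on the right alone in the mucus secretory programme.

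Hormone context was read from lists of known uterine target genes. The background for these counts was 2.16% up and 2.08% down over all genes tested. Of 22 tested estrogen-induced genes, 4 were called up and 1 down (median 1.78), with the epithelial *Sprr2b* (5.23), the protease *Ctss* (1.40) and *Ltf* among those up and the cadherin *Cdh16* down (-5.04). The abundant *C3* and *Sprr2f* had log2 fold changes of 3.33 and 2.25 and were not called. Of 14 tested progesterone-induced genes, 10 were called down and none up (median -2.51), among them *Il13ra2*, a decoy receptor (-7.09), the homeobox gene *Msx1* (-2.88) and the receptor chaperone *Fkbp5* (-1.65). Of the 16 genes on this list, 5 are also on another list, among them *Hand2* and *Hoxa10* of the stroma markers. The falls of the stroma and progesterone-induced lists are thus partly those of the same genes. Among 24 tested receptors, cytokines and transcription factors named in the control of mucin genes, 5 were called up and none down (median 0.56). They were the cytokine *Il1a* (4.93), the nuclear receptor *Pparg* (2.53), the TNF receptor *Tnfrsf1b* (1.40), the interferon receptor subunit *Ifngr2* (1.40) and the transcription factor *Ets2* (1.13). The epithelial factors *Elf3* (2.37) and *Klf4* (1.51) did not pass the test here. The study reported both as higher in HSD17B1TG, by its own RNA-seq test and by RT-qPCR in more mice.

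The list counts shared the dependence on single mice. With each mouse left out in turn, the lists other than the 7 mucins gave 2 to 55 genes called up together and 1 to 29 called down. Calls up went to 0 in some fit for every one of these lists except the control factors (2 to 6), and calls down for every one except the progesterone-induced genes (1 to 11).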

How the data were processed

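Reads of uterine RNA, paired-end and 150 bases long, were mapped by the authors with HISAT2 2.0.5 to the mouse genome GRCm38. The authors deposited 1 table that lists, per mouse and gene, a raw count, that count divided by a size factor (signal) and FPKM. Which program counted the reads, and with which strand setting, is not given in the sources used here. Columns and tables with the authors' own fold changes, p-values and enriched terms were not used.

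Mice were grouped by the labelled strain. The tests on counts used edgeR 4.0.16 under R 4.3.3 (filterByExpr, TMM factors, quasi-likelihood test, Benjamini-Hochberg adjustment over 16993 genes). Genes were called at an adjusted p under 0.05, more than a 2-fold change and over 1 FPKM on average in at least 1 genotype, limits taken from the study's methods. FPKM gave levels, and log2(FPKM + 0.01) the values relative to epithelial markers, each tested with a two-sided exact permutation test over 252 assignments of the mice. Promoters came from RefSeq (GRCm38.p6), and transcripts and gene overlaps from GENCODE M21. The signal values were read and entered no test.

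The alternatives were DESeq2 1.42.0, limma 3.58.1 (voom, log2(FPKM + 1), log2(FPKM + 0.1)), RLE and upper quartile factors, no filter, a stricter filter, adjusted p alone, an epithelial covariate, each mouse left out, and levels as CPM per kilobase. Pseudocounts of 0.1 and 1 for the values relative to epithelial markers were added after seeing the data. The tests were checked on simulated counts in which the spread between mice was capped. That check does not cover genes that vary as widely within genotypes as the mucins tested.

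The mucins and the 19 other lists were chosen with earlier results of these data known. From each list the text names up to 4 called members by smallest p and the 2 with the highest mean FPKM, with every other mucin of mean FPKM over 0.1, and around each mucin the overlapping and nearest coding genes and the 3 of most similar pattern. *Krt5*, *Foxj1*, *Ifngr2* and *St6galnac2* were named after their values were seen. Library totals and the precision they give are stated with the results, and no batch is labelled.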

Additional observations from a re-analysis of the deposited data

Results flagged for a closer look

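In 3 of 14 groups of 5 mice checked, 1 mouse stood apart from the others of its genotype by Dixon's test on FPKM, whose limit chance passes in about 1 of 20 groups of normally distributed values. FPKM of these genes are skewed, so chance may pass it more often here, and the test was not made on a log scale. *Muc4* was at 31.1 FPKM in WT4, whereas the other WT mice lay between 0.132 and 7.86 FPKM. *Muc13* was at 0.287 FPKM in the same mouse, against 0 to 0.0804 FPKM in the others, and this was still below the lowest HSD17B1TG mouse. *Muc5b* was at 0.0788 FPKM in WT1, against 0 to 0.0163 FPKM in the others, which rests on 29 counts.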

How the results depend on the processing

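*Muc13* was called under every alternative but the epithelial covariate, where its log2 fold change was 4.09. That covariate turned *Muc20* to -0.0097 and left 0 genes called up or down over all genes, 0 mucins up and 0 genes up or down in the other lists, with 1770 genes at an unadjusted p under 0.05. DESeq2 called *Muc1* (2.28), 2 mucins up (5.42% of all genes), 921 genes up and 657 down over all genes, and 62 up in the other lists. The adjusted p alone gave 568 genes up. Voom gave 189 down over all genes and 11 down in the other lists, and limma on log2(FPKM + 1) gave 228 and 12. Relative to epithelial markers, *Muc5b* was reversed at pseudocounts of 0.1 and 1 (-0.86 and -1.21), *Muc15* was at -1.39 and -1.28, and *Muc16* at -1.23 with 1. A pseudocount of 1 makes the term of so low a mucin nearly constant, and 0.1 damps it, so such values approach the difference in the epithelial mean (1.34) with its sign turned and are no result on these 3 mucins. For the other changes the cause was not tested.

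With 1 mouse left out, the log2 fold changes were 1.97 to 2.90 for *Muc1*, 2.04 to 3.92 for *Muc4*, 1.64 to 2.95 for *Muc20* and -0.017 to 1.08 for *Muc16*, with 1 to 4 mucins called up. Over all genes 38 to 888 were called up and 27 to 666 down, and in the other lists 2 to 55 and 1 to 29. Relative to epithelial markers, the differences were 1.76 to 3.25 for *Muc4*, 0.85 to 1.73 for *Muc20*, -0.044 to 0.59 for *Muc5b*, -2.10 to -1.15 for *Muc15* and -1.45 to -0.29 for *Muc16*. Total counts differed by -1631537 to 482153 between the genotypes. With all 10 mice, *Muc5b* and *Muc15* had too few counts to pass the filter, which limits what can be said of them. *Muc5b* passed it in 6 of the 10 fits with 1 mouse left out. Its log2 fold changes there were 1.28 to 1.84, and it was not called.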
